A study of Mus musculus with 12 samples.

Results

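Nrf2, encoded by Nfe2l2, is the transcription factor that switches on antioxidant and detoxifying enzymes, and its transcript was lower in livers given an adenovirus for human ApoF (hApoF) than in livers given an adenovirus for green fluorescent protein (GFP). The genes described here are Nfe2l2, Keap1 and 8 Nrf2 target genes (Nqo1, Gclc, Gclm, Ephx1, Txnrd1, Srxn1, Hmox1 and Ugdh), 10 of the 22180 genes measured. They were chosen by name, from what is known of the pathway, but with earlier results of these data known. All probe sets annotated to exactly 1 of these symbols were taken, which gave 11 probe sets. Keap1 had 2 of them, and every other gene had 1. All 10 genes were measured, and no filter on low values was applied.

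Both groups were wild-type male C57BL6/J mice of 8 to 10 weeks injected in the tail vein with an Ad5 adenovirus. The virus carried GFP for 6 arrays (GFP 1 to 6) and human ApoF, an apolipoprotein of circulating lipoproteins, for 6 arrays (hApoF 7 to 12). Livers were taken on day 4 at 3 pm after 6 h without food, and total RNA was hybridised to 1 array per sample. Both groups carried a virus, and uninjected livers, the promoter of the transgenes and the viral dose were not analysed here. The probe sets are of mouse genes, so they do not check the level of the human transgene. The labels do not say that each array is a separate animal, so a p-value speaks only of the spread among these arrays, which may be technical. The values are deposited log2 values (RMA, a robust summary of each probe set's probes), on which a difference of 1 is a doubling.

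In an unstressed cell Keap1, an adaptor of the Cul3 ubiquitin ligase, holds Nrf2 protein and sends it for degradation. Electrophiles and oxidants modify Keap1, Nrf2 then accumulates, pairs with a small Maf protein and binds antioxidant response elements in its target genes. Much of this control acts on the Nrf2 protein, which an array does not measure. In liver the pathway is known for glutathione synthesis, quinone and epoxide detoxification and glucuronidation.

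The promoters show where the short letters of the antioxidant response element lie in these genes. Windows from 250 bases before to 50 bases after the gene start were taken from RefSeq (build GRCm38.p6), and 8 of the 10 genes had at least 1 (10 windows in all, 3 of them for Txnrd1). Gclc and Hmox1 are not in that table. The element's core was searched on both strands as TGACNNNGC and as TGAGNNNGC, which cannot overlap at the same position on the same strand. TGACNNNGC was in 5 of the 10 windows, against 12.4% of all 32851 windows, and TGAGNNNGC was in 1 of the 10, against 17.6% of all. Either was in 5 of the 10 and in 27.8% of all windows. A match of these letters is a description and not a site of binding. The 250 bases before the start are printed, 5′ to 3′ on the gene's strand, for 3 genes that fell (Nfe2l2, Ephx1 and Nqo1) and for 2 with several matches (Ugdh and Srxn1), and capitals mark either core on either strand.
Nfe2l2 (chr2:75704664-75704913, minus strand): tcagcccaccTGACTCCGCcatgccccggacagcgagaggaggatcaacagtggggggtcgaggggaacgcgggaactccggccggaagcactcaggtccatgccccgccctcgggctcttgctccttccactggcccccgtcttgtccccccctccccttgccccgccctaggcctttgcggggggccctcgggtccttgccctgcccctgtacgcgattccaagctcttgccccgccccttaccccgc
Ephx1 (chr1:181017570-181017819, minus strand): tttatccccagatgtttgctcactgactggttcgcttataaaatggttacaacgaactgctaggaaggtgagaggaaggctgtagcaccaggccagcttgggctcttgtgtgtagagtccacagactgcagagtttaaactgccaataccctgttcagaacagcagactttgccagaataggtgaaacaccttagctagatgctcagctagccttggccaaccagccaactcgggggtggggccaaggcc
Nqo1 (chr8:107403206-107403455, minus strand): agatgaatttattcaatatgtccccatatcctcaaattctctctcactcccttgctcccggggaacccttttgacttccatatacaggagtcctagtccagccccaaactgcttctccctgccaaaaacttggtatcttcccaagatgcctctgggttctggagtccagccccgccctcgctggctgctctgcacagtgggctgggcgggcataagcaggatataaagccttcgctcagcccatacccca
Ugdh (chr5:65435843-65436092, minus strand): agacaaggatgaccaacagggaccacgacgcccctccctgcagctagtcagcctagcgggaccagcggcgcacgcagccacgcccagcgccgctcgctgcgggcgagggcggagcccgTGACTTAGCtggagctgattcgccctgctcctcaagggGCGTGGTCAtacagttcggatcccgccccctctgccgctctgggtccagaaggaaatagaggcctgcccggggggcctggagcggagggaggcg
Srxn1 (chr2:152105274-152105523, plus strand): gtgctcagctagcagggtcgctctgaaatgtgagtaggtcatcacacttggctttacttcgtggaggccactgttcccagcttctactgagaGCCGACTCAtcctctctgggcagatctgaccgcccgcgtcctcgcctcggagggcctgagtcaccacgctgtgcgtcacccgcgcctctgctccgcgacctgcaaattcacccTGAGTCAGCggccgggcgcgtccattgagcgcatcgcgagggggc

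The Nfe2l2 window held TGACTCCGC, at positions -240 to -232 counted from the start, so that letters of the element stand in front of the gene for Nrf2 itself. The Ugdh window held TGACTTAGC from position -132 and, on the other strand, TGACCACGC, which covers positions -94 to -86. In Srxn1 the match TGAGTCAGC covers positions -45 to -37, a TGAGTCGGC match on the other strand covers -158 to -150, and a match to TGACNNNGC lies after the start at 29 to 37. Gclm had 1 match at -134 to -126 and 1 of the 3 Txnrd1 windows had 1 at -92 to -84. Neither core was found in the windows of Ephx1, Nqo1 and Keap1, which says only that these letters are not in those windows.

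Of the 10 genes 4 fell (Ephx1, Nqo1, Nfe2l2 and Gclc), 0 rose and 6 did not pass the test (limma over all genes with Benjamini-Hochberg adjustment, threshold 0.05). Over all genes 6.91% passed, 4.8% lower and 2.11% higher. The differences of all 10 genes were below 0, between -0.79 and -0.06 with a median of -0.39, whereas 42.3% of all genes were below 0 and the median of all genes was 0.03. No gene of the 10 was above 0 at any p, so none was higher at an unadjusted p under 0.05 either. The genes were chosen with earlier results of these data known, so these counts are no independent test. All 10 differences stayed below 0 under each of the 8 other settings and in each of the 12 omissions of 1 array. In bulk liver fewer cells of a type and less RNA per cell cannot be told apart.

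**Figure D1:**
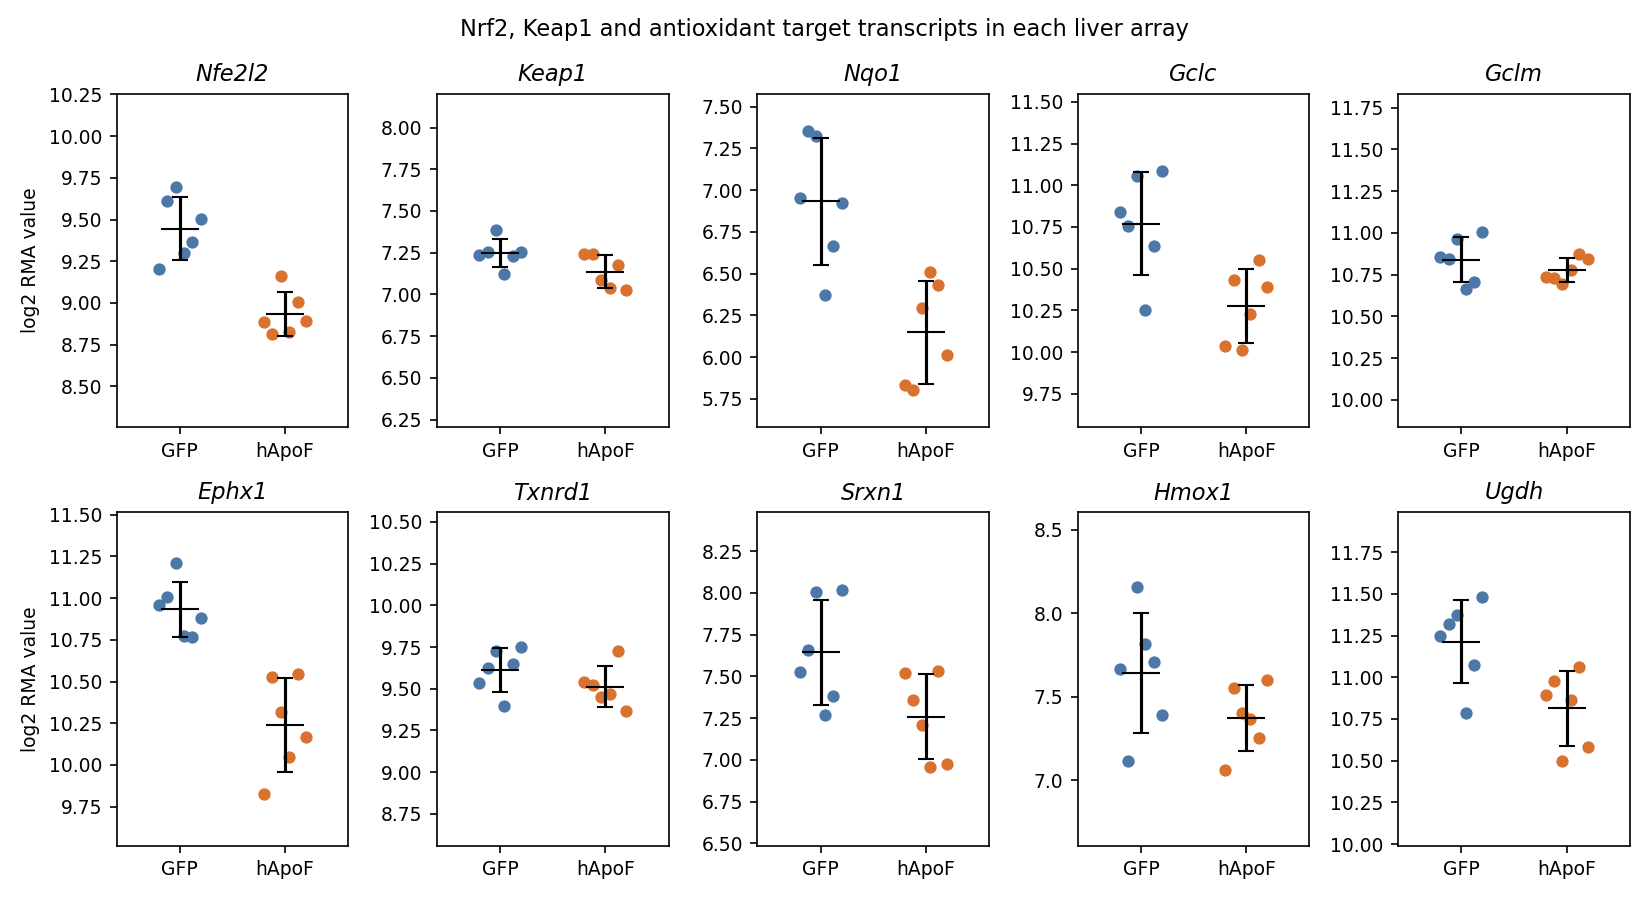
Log2 RMA value (y axis) of each of the 10 transcripts in the 6 GFP and 6 hApoF arrays, with the brightest probe set per gene, 1 point per array, and the mean and SD in black. Each panel spans 2 log2 units. The groups are separate in Nfe2l2 and Ephx1 and overlap in the other 8.

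Nfe2l2 was lower in every hApoF array than in any GFP array. Its values ran from 9.21 (GFP 1) through a median of 9.43 to 9.69 (GFP 3) in GFP livers, and from 8.82 (hApoF 8) through a median of 8.89 to 9.16 (hApoF 9) in hApoF livers. The difference was -0.51 on the log2 scale (SE 0.09, limma adjusted p = 0.0030, exact two-sided permutation p = 0.0022, the smallest that 924 assignments can give). This is a 1.43-fold fall, and it ranks 485 among 22180 genes ordered from the largest fall. Non-overlap with every hApoF array lower was seen in 2 of the 10 genes (Nfe2l2 and Ephx1) and in 3.49% of all genes.

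Keap1, which restrains Nrf2, did not pass. Its brighter probe set read 7.12 to 7.38 in GFP livers (median 7.25) and 7.02 to 7.24 in hApoF livers (median 7.13), so that the groups overlapped. The difference was -0.11, with a 95% interval from -0.26 to 0.03 (limma adjusted p = 0.377, exact permutation p = 0.061). The dimmer probe set ran from 5.35 to 5.63 in GFP livers and from 5.26 to 5.65 in hApoF livers, and its difference was -0.14 (SE 0.08, limma adjusted p = 0.328 over all probe sets with 1 symbol, of which 4.67% were lower). The probe sets thus lay on the same side of 0, and the intervals of both include 0. Measured within each array, the change of Nfe2l2 exceeded that of Keap1 by -0.40 (exact permutation p = 0.0043, 0.0065 after adjustment over 2 such pairs). These pairs were picked after the values had been seen.

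**Figure D2:**
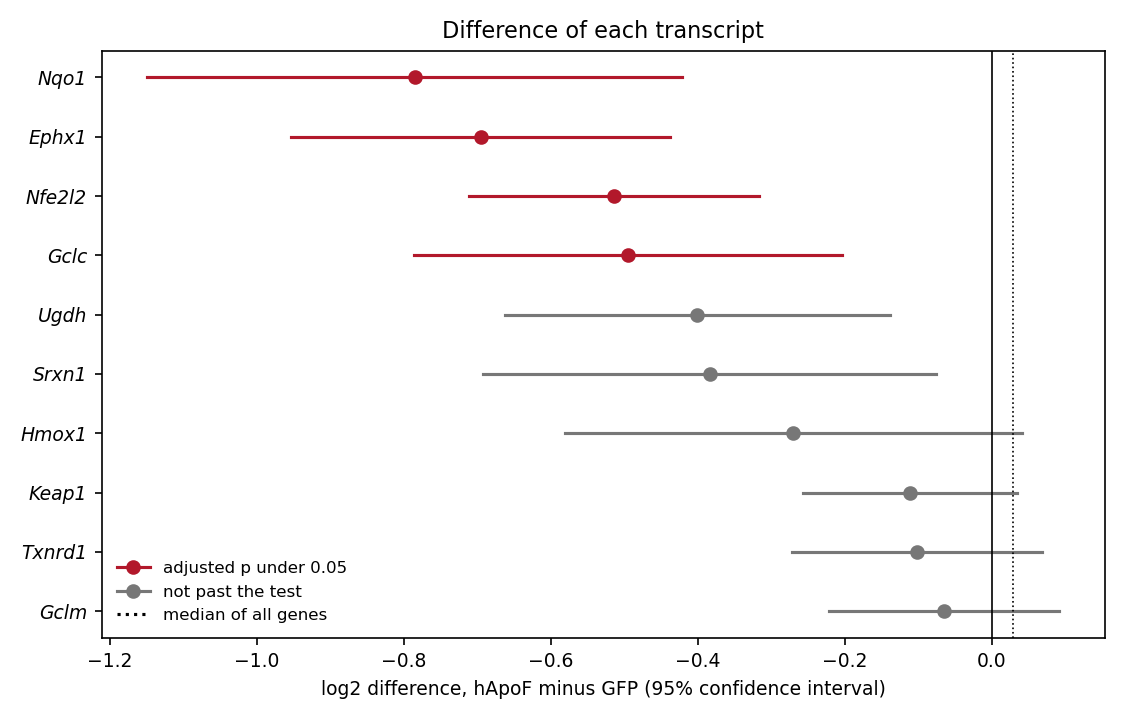
Log2 difference of hApoF minus GFP (x axis) for each transcript, with its 95% confidence interval from limma. Red points passed at an adjusted p under 0.05, grey points did not, and the dotted line is the median of all genes (0.03). Gclm, Txnrd1, Keap1 and Hmox1 have intervals that include 0.

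Of the enzymes that act directly on reactive compounds, Ephx1 and Nqo1 fell. Ephx1, microsomal epoxide hydrolase, opens reactive epoxides to diols. It read 10.77 (GFP 5) to 11.21 (GFP 3) with a median of 10.92 in GFP livers, and 9.82 (hApoF 7) to 10.55 (hApoF 11) with a median of 10.24 in hApoF livers. The groups did not overlap, and the difference was -0.70 (SE 0.12, limma adjusted p = 0.0022, exact permutation p = 0.0022), a 1.62-fold fall. Nqo1, a quinone reductase that is the classical Nrf2 target, had the largest difference of the 10 genes. It ran from 6.37 (GFP 4) through 6.94 to 7.35 (GFP 2) in GFP livers and from 5.80 (hApoF 8) through 6.15 to 6.51 (hApoF 10) in hApoF livers. GFP 4 lay below 2 hApoF arrays, and the other 5 GFP arrays lay above all hApoF arrays. Its difference was -0.79 (SE 0.17, limma adjusted p = 0.011, exact permutation p = 0.0065), a 1.72-fold fall, which ranks 229 from the largest fall.

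Glutamate-cysteine ligase, which carries out the first and limiting step of glutathione synthesis, has a catalytic and a modifier subunit, and the former fell while the latter did not pass. Gclc, the catalytic subunit, ran from 10.25 (GFP 4) through 10.80 to 11.09 (GFP 6) in GFP livers and from 10.01 (hApoF 9) through 10.31 to 10.55 (hApoF 11) in hApoF livers, and GFP 4 alone of the GFP arrays lay within the hApoF range. It fell by 0.50 (SE 0.14, limma adjusted p = 0.040, exact permutation p = 0.013). Gclm, the modifier subunit, ran from 10.66 through 10.85 to 11.01 in GFP livers and from 10.69 through 10.76 to 10.88 in hApoF livers, with the hApoF range inside the GFP range. Its difference was -0.06, with a 95% interval from -0.22 to 0.09 (limma adjusted p = 0.663). Within each array the change of Gclc exceeded that of Gclm by -0.43 (exact permutation p = 0.0065, also 0.0065 after adjustment over the 2 pairs). This pair too was picked after the values had been seen, so its p-value is no independent test of the contrast. The call of Gclc was lost in 9 of the 12 omissions of 1 array, namely those of GFP 1, 2, 3, 5 or 6 and of hApoF 7, 9, 10 or 12, with differences of Gclc down to -0.43 and limma adjusted p between 0.051 and 0.096.

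Ugdh and Srxn1 were lower by similar amounts and did not pass. Ugdh, UDP-glucose dehydrogenase, makes the UDP-glucuronate used in glucuronidation. It ran from 10.79 (GFP 4) through 11.28 to 11.48 (GFP 6) in GFP livers and from 10.50 (hApoF 9) through 10.88 to 11.06 (hApoF 11) in hApoF livers, and 5 of 6 GFP arrays lay above every hApoF array. The difference was -0.40 (SE 0.12, limma adjusted p = 0.063, exact permutation p = 0.022). Ugdh passed without GFP 4 (limma adjusted p = 0.014), without hApoF 11 (0.050, just under the threshold), without GFP 4 and hApoF 12 together (0.026), with array weights (0.037), with trend and robust settings (0.047) and among brighter genes (0.031). In all other omissions and settings Ugdh missed the threshold, with limma adjusted p up to 0.139. Srxn1, sulfiredoxin, restores over-oxidised peroxiredoxins. It ran from 7.27 (GFP 4) through 7.59 to 8.02 (GFP 6) in GFP livers and from 6.96 (hApoF 10) through 7.29 to 7.53 (hApoF 11) in hApoF livers. Its difference was -0.38, with a 95% interval from -0.69 to -0.08 that is not adjusted for the number of genes (limma adjusted p = 0.133, exact permutation p = 0.045), and no setting brought it past the test.

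Txnrd1 and Hmox1 did not pass, and the groups overlapped in both. Txnrd1, cytosolic thioredoxin reductase, ran from 9.40 through 9.64 to 9.75 in GFP livers and from 9.37 through 9.50 to 9.73 in hApoF livers (difference -0.10, 95% interval -0.27 to 0.07, limma adjusted p = 0.509). Hmox1, heme oxygenase 1, breaks heme down to biliverdin, iron and carbon monoxide and is abundant in macrophages as well as inducible in hepatocytes. It ran from 7.12 (GFP 2) through 7.69 to 8.16 (GFP 3) in GFP livers and from 7.06 (hApoF 7) through 7.39 to 7.60 (hApoF 12) in hApoF livers, and 4 of 6 GFP arrays lay above every hApoF array. The difference of Hmox1 was -0.27 (95% interval -0.58 to 0.04, limma adjusted p = 0.312, exact permutation p = 0.139).

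**Figure D3:**
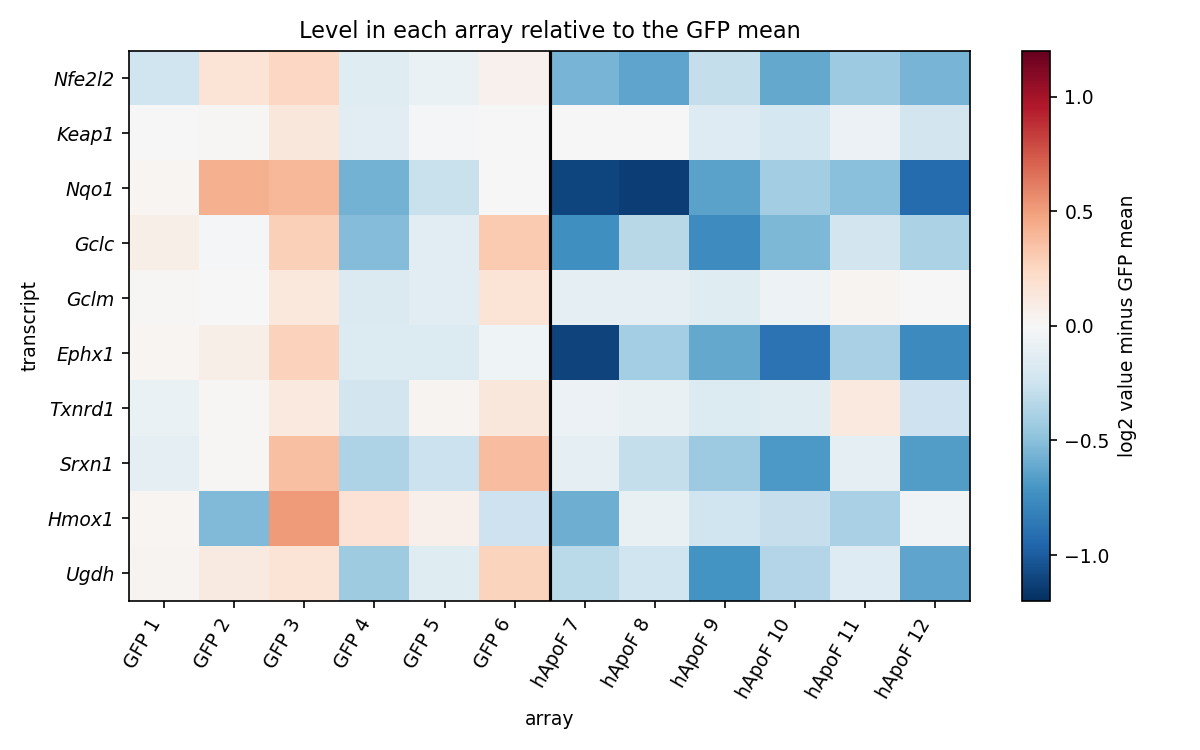
Level of each transcript (rows) in each array (columns) minus the mean of the 6 GFP arrays, as log2 values from blue (lower) to red (higher). GFP 3 was at or above the GFP mean for all 10 genes and GFP 4 was below it for 9, and 4 hApoF arrays were below it for all 10.

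The arrays of a group differed across several of these genes at once. GFP 3 was among the 2 highest GFP arrays for 10 of 10 genes, and GFP 6 was the highest for 5 (Gclc, Gclm, Txnrd1, Srxn1 and Ugdh). GFP 4 was the lowest GFP array for 7 genes (Keap1, Nqo1, Gclc, Gclm, Txnrd1, Srxn1 and Ugdh). Among hApoF arrays, hApoF 11 was the highest for 6 genes (Gclc, Gclm, Ephx1, Txnrd1, Srxn1 and Ugdh). Compared with the GFP mean, hApoF 7, 8, 9 and 10 were lower for all 10 genes, hApoF 12 for 9 and hApoF 11 for 8. The mean level over the 10 genes lay between 8.97 (GFP 4) and 9.49 (GFP 3) in GFP livers and between 8.76 (hApoF 7) and 9.02 (hApoF 11) in hApoF livers.

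GFP 4 also stood apart from the other GFP arrays in the spread of its values over all 35145 probe sets. Its lower and upper quartiles, 3.798 and 6.673, were close to those of the hApoF arrays (3.741 to 3.796 and 6.668 to 6.726), while other GFP arrays had 3.659 to 3.718 and 6.734 to 6.814. Quantile normalization, which gives every array the same distribution, left Nfe2l2 at -0.51 (limma adjusted p = 0.0027), Ephx1 at -0.71 (0.0020), Nqo1 at -0.72 (0.014) and Gclc at -0.51 (0.034). Without GFP 4 and hApoF 12, the arrays with the lowest weights in limma, Nfe2l2 was at -0.54, Ephx1 at -0.71, Nqo1 at -0.87 and Gclc at -0.62, and each passed.

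Most partners and regulators of Nrf2 did not pass. Among the 17 on the array 15 missed the threshold, Maff rose and Palb2 fell, and their median difference was 0.01, beside 0.03 for all genes. Maff, a small Maf protein that can pair with Nrf2, rose by 0.44 (SE 0.10, limma adjusted p = 0.017), with 4.92 to 5.35 in GFP livers and 5.46 to 6.04 in hApoF livers. Palb2, a DNA repair protein that also binds Keap1, fell by 0.51 (SE 0.10, limma adjusted p = 0.0044), with levels near the middle of the array or below it (4.59 to 5.05 in GFP livers and 4.14 to 4.60 in hApoF livers). Cul3, which forms the ligase with Keap1, was at 0.06 (limma adjusted p = 0.75), and Bach1, a repressor at the same elements, at 0.22 (0.22). These last genes were picked after their values had been seen.

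Several other detoxifying genes known to depend on Nrf2 fell. They were 7 of the 20 measured, with 13 that missed the threshold and 0 that rose, a median of -0.29, and 12 were below 0. Of all genes 4.8% fell, 2.11% rose and 42.3% were below 0. This list too was chosen with earlier results of these data known. Gstm3, a glutathione transferase, had the largest fall, from 8.56 to 9.99 in GFP livers to 7.94 to 8.38 in hApoF livers (log2 difference -1.25, SE 0.18, limma adjusted p = 4.4e-04). Gstm1 fell by 0.66 and Gstm4 by 0.58, and these belong to a family of near-identical genes whose probes may not tell members apart. Their falls may therefore not be separate from that of Gstm3. The other 4 that fell, named after their values were seen, were the carbonyl reductase gene Cbr3 (-0.86), the transferase gene Gsta4 (-0.59), the aldehyde oxidase gene Aox1 (-0.57) and Ptgr1, a prostaglandin reductase (-0.43). Cbr3 was dim, with means of 4.872 in GFP livers and 4.015 in hApoF livers, below the array medians. Osgin1, a growth inhibitor induced by oxidative stress, was at 0.40 and did not pass (limma adjusted p = 0.16). The export pumps Abcc2 (0.04), Abcc3 (0.06) and Abcc4 (0.01) lay within their errors of 0.

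**Figure D4:**
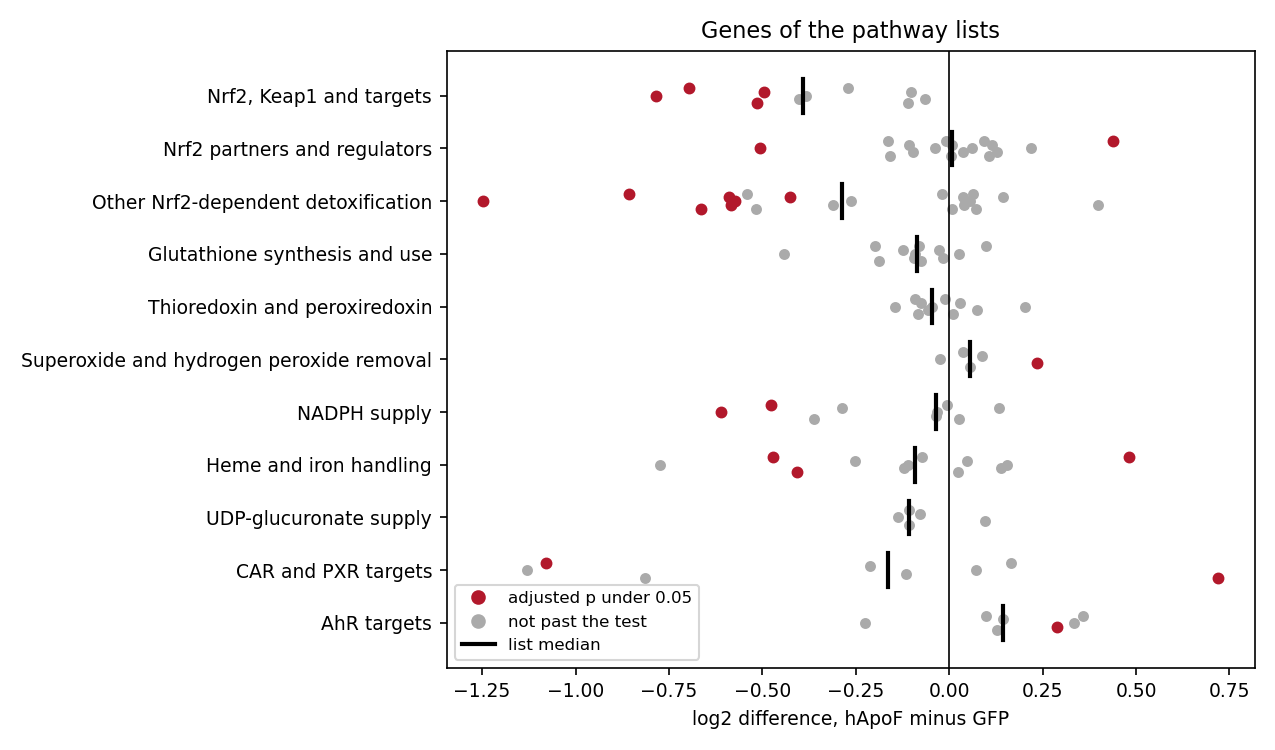
Log2 difference of hApoF minus GFP (x axis) for every measured gene of each list (rows), 1 point per gene, red where the adjusted p was under 0.05, with the list median as a black bar. The medians of the 10 genes of the top row (-0.39) and of the other detoxifying genes (-0.29) are the lowest, and those of the other lists lie between -0.16 and 0.14.

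Genes of glutathione recycling and of thioredoxin chemistry did not pass. None of 12 measured glutathione genes passed in limma (2 had an unadjusted p under 0.05), and their median was -0.09. The lowest p was that of Gpx2, a glutathione peroxidase of the gut that was dim here, 2.91 to 3.64 in GFP livers and 2.11 to 3.18 in hApoF livers (limma adjusted p = 0.143). None of 11 measured thioredoxin and peroxiredoxin genes passed (0 at an unadjusted p under 0.05), the lowest p being that of mitochondrial thioredoxin, Txn2 (-0.15, limma adjusted p = 0.272). Prdx1, Prdx5 and Prdx6 of this list were not measured under a single symbol, so nothing is said of them. Of 5 genes that remove superoxide or hydrogen peroxide, Sod2, mitochondrial superoxide dismutase, rose by 0.23 (limma adjusted p = 0.030) and 4 did not pass. The call of Sod2 was lost in 10 of 12 omissions, all but those of GFP 4 and hApoF 12 (limma adjusted p from 0.053 to 0.071), and with centred arrays (0.070).

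Among 9 genes of NADPH supply, on which quinone reductase and glutathione reductase draw, Pgd and Idh2 fell and the other 7 missed the threshold. Pgd, 6-phosphogluconate dehydrogenase of the pentose phosphate pathway, ran from 8.61 to 9.21 in GFP livers and from 8.08 to 8.53 in hApoF livers (-0.61, SE 0.11, limma adjusted p = 0.0030). Idh2, mitochondrial isocitrate dehydrogenase, fell by 0.48 (SE 0.10, limma adjusted p = 0.0062). In both genes every hApoF array was below every GFP array, as in 3.49% of all genes, while the median of the 9 was -0.03. In the UDP-glucuronate list none of 5 genes passed in limma (0 at an unadjusted p under 0.05), and Slc35d1, which carries UDP-sugars into the endoplasmic reticulum, had the lowest p (-0.14, limma adjusted p = 0.327).

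Heme and iron genes went both ways around Hmox1. Among 12 on the array, 9 missed the threshold. The heme transporter gene Slc48a1 fell by 0.41 (limma adjusted p = 0.018) and Slc40a1, the iron exporter ferroportin, by 0.47 (0.020), while Alas1, the first enzyme of heme synthesis, rose by 0.48 (0.0029). In each of these 3 genes the groups did not overlap. Every hApoF array was below every GFP array in 3.49% of all genes, and the share in the higher direction is not given here.

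Ephx1 and Nqo1 also answer to other xenobiotic receptors, and the genes of those receptors were measured alongside. In the CAR and PXR list 6 of 8 genes missed the threshold, and 5 of the 8 had an unadjusted limma p under 0.05. The differences were below 0 in 5 and above 0 in 3. Cyp2b10, picked after its value was seen, was at -1.13 and did not pass (limma adjusted p = 0.062). Nr1i3, the receptor CAR itself, rose from 8.76 to 9.13 in GFP livers to 9.50 to 9.83 in hApoF livers (0.72, SE 0.08, limma adjusted p = 5.3e-05). Cyp2c55, a cytochrome P450 induced through CAR, fell by 1.08 in its brighter probe set (limma adjusted p = 0.0024), but its other probe set was at 0.21 (limma adjusted p = 0.268). The mean of both Cyp2c55 probe sets gave -0.43. Of 7 genes of the AhR list Ahrr, the repressor of that receptor, rose by 0.29 (limma adjusted p = 0.037) and 6 did not pass. The AhR differences were above 0 in 6 and below 0 in 1, and 4 had an unadjusted limma p under 0.05. Picked after their values were seen, Cyp1a2 was at 0.357 (limma adjusted p = 0.056), Ahr at 0.335 (0.058) and Arnt at -0.226 (0.063). The mean level of the AhR list did not overlap, with 6.8485 to 6.9836 in GFP livers and 6.9978 to 7.1951 in hApoF livers. The call of Ahrr was lost without GFP 3, 5 or 6 or hApoF 7, 8, 9 or 12 (limma adjusted p up to 0.085), with centred arrays (0.054) and with a second quantile normalization (0.060). Over all 10 lists other than the 10 genes of the pathway itself, 13 of 106 measured genes fell and 5 rose, and the number that rose was 3 without GFP 3, GFP 6 or hApoF 9. Of all genes 4.8% fell and 2.11% rose.

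Markers of the cells of the liver were set beside these values. The mean level of 8 hepatocyte markers lay between 11.69 and 11.85 in GFP livers and between 11.83 and 11.91 in hApoF livers, far above array medians of 4.93 to 5.03, and none passed in limma (3 had an unadjusted p under 0.05). Of 51 measured markers of all lists 6 rose and 0 fell in limma, while 2.11% of all genes rose and 4.8% fell. In either direction 23 markers had an unadjusted p under 0.05, and 42 differences were above 0 and 9 below. The number that rose became 14 on omission of GFP 4 and 3 on that of GFP 1, 2 or 3 or hApoF 7. The 10 Kupffer cell and macrophage markers, cells in which Hmox1 is abundant, had a mean level of 6.77 to 7.84 in GFP livers and 7.28 to 8.10 in hApoF livers. Of these, Clec4f rose by 1.26 (limma adjusted p = 0.010) and Vsig4 by 1.38 (0.038), and 8 did not pass. Of the 10 differences 9 were above 0 and 1 below. Vsig4 lost its call without GFP 1, 2 or 3 or hApoF 7, 9, 11 or 12 (limma adjusted p up to 0.088) and with trend and robust settings (0.090). GFP 4, the GFP array in which 7 of the 10 pathway genes were lowest, had the highest marker mean of the GFP arrays in 7 of the 9 marker lists, hepatocyte (11.85), macrophage (7.84) and endothelial (8.81) among them. GFP 3, with the highest mean over the 10 pathway genes, was the next highest for macrophage (7.46) and endothelial (8.72) markers. Of 7 endothelial markers Kdr rose (0.44, limma adjusted p = 0.0089) and 6 did not pass. All 7 endothelial differences were above 0, and 5 had an unadjusted limma p under 0.05. Of 7 stellate cell markers Dcn rose (0.26, limma adjusted p = 0.034) and 6 did not pass, with 5 above 0 and 2 below. Of 5 markers of neutrophils and inflammatory monocytes Ccr2 (0.46, 0.0063) and S100a9 (0.40, 0.049) rose and 3 did not pass. Those 3 were S100a8 (0.38, 0.31), Ly6g (-0.22, 0.28) and Ly6c2 (-0.16, 0.73), the latter pair below 0. Dcn lost its call in 9 of 12 omissions, all but those of GFP 4, GFP 5 and hApoF 11 (limma adjusted p up to 0.085), and with centred arrays (0.060). S100a9 lost it in 9, all but those of GFP 4, hApoF 9 and hApoF 12 (up to 0.113), with centred arrays (0.054) and with a second quantile normalization (0.071). The part of these markers in the levels of the 10 genes was not tested.

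The genes whose pattern over the 12 arrays was most like that of Nfe2l2 were not among the other 9 described here. Likeness was measured as the root mean square difference of log2 values after centring each gene on its own mean, over 12 arrays. Predicted genes (symbols of Gm plus digits, or ending in Rik) were left out of the ranking. The closest to Nfe2l2 were Umps, an enzyme of pyrimidine synthesis (0.071), Gypc, a red cell membrane protein (0.084), and Atf7ip, a chromatin cofactor (0.085), with differences of -0.53, -0.55 and -0.55. Of the other 9 genes the nearest to Nfe2l2 was Ephx1 (0.22, rank 1247 among the genes ranked) and the farthest Hmox1 (0.33, rank 8142). The closest to Ephx1 were Pomt1, a protein mannosyltransferase (0.14), Dot1l, a histone methyltransferase (0.14), and Lgals3bp, a secreted galectin ligand (0.15). Nfe2l2 ranked 115 and Gclc ranked 141 in likeness to Ephx1. This measure rewards a group difference of like size, so it orders genes within these arrays and says nothing of control.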

How the data were processed

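Mouse liver RNA was measured on 12 arrays (6 GFP, 6 hApoF). The authors deposited log2 values per probe set, made with oligo and RMA per the submitters' processing notes; the sources used here do not give versions, parameters or build. RMA equalises the distributions of probe intensities before it summarises them, so the deposited probe set values need not share 1 distribution, and it gives outlying probes less weight. Of 35145 probe sets 23521 had 1 gene symbol in the platform annotation, 1814 had several and 9810 none; only the first were named. Each of 22180 genes took its brightest probe set by mean over all arrays. hApoF minus GFP was fitted in limma 3.58.1 (R 4.3.3, lmFit and eBayes, no covariates) over all genes, with Benjamini-Hochberg adjustment and a threshold of 0.05. Exact two-sided permutation tests used all 924 assignments of 6 of 12 arrays. No 2 arrays were identical, and correlations between arrays were 0.982 to 0.993. The number of arrays limits the precision.

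The genes, lists and alternatives were chosen with earlier results of these data known, and no list was tested as a set. Of 119 other pathway genes 106 and of 57 markers 51 were measured under 1 symbol. The rest were not analysed here, among them Prdx1, Prdx5, Prdx6, G6pdx, Tkt, Gsta1 and Gsta2. Named by rule were all 10 genes; per pathway list up to 3 genes with the lowest p that passed in each direction, or 1 where none passed; per marker list up to 2 in each direction; and 3 genes most like Nfe2l2 and the member with the lowest p. Alternatives were median centring, a second quantile normalization, trend and robust settings, brighter genes only, mean of probe sets, probe sets with several genes kept, array weights, and omission of arrays. Promoters were read from a RefSeq table (GRCm38.p6) in pandas 2.3.3 (Python 3.11.15), and figures used matplotlib 3.10.9.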

Additional observations from a re-analysis of the deposited data

Results flagged for a closer look

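Of 86 groups of 6 arrays examined (the 11 probe sets of the 10 genes, the other named genes and the marker lists), 5 held an array whose gap to its nearest neighbour passed Dixon's 95% critical value, where chance gives about 1 in 20. In the dimmer Keap1 probe set hApoF 10 read 5.65, above the other hApoF arrays at 5.26 to 5.38. Maff read 4.92 in GFP 2, below the other GFP arrays at 5.19 to 5.35. Sod2 read 10.24 in hApoF 12, below the others at 10.40 to 10.45. The stellate cell marker mean was 7.20 in GFP 2, below 7.43 to 7.57, and the B cell marker mean was 5.84 in hApoF 12, above the other hApoF arrays, which reached 5.54.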

How the results depend on the processing

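No paired analysis was possible because the groups share no replicate number. The count of the 10 genes that fell was 4, and it was 4 or 5 under the 8 other settings and 3 to 5 in the 12 omissions of 1 array, and 0 rose in any of them. Nfe2l2, Ephx1 and Nqo1 passed under each of these 20 alternatives, with limma adjusted p up to 0.010, 0.0072 and 0.031. None of the 10 genes, nor of the 23 genes named from the lists by rule, changed direction; the genes chosen by likeness and those named after their values were seen were not rerun. Over the other pathway lists the number that rose was 3 with arrays centred (5 as reported) and 3 to 6 in the omissions. The number of markers that rose was 6, and it was 10 with trend and robust settings, 11 among brighter genes, 10 with array weights, 10 without GFP 4 and hApoF 12 together and 3 to 14 in the omissions; the number that fell was 0, and it was 1 with centred arrays, with trend and robust settings and among brighter genes, and 0 to 1 in the omissions. Over all genes 469 rose, and 254 to 653 did in the omissions (254 on omission of GFP 2, 267 on that of GFP 3 or of GFP 6, and 307 on that of GFP 1). The causes of these shifts were not tested. Dim probe sets such as those of Gpx2, Cbr3, Ahrr and S100a9 lie below the array medians, where signal limits the measurement of a difference.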
